A study of Mus musculus with 12 samples.

Results

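Endothelial identity and leukocyte adhesion were followed through 10 genes in colon RNA: Vwf, Cdh5, Pecam1, Kdr and Tek, which mark the cells lining blood vessels, and Icam1, Vcam1, Madcam1, Sele and Selp, which those cells use to hold passing leukocytes. The genes were taken by symbol from 35688 genes in the table of transcript abundances, and each gene's transcripts were added up. Mice of 2 genotypes were compared at 2 weeks of age, and both are labelled as lacking Il10, which encodes the cytokine interleukin 10, a brake on inflammation. The Il10-/- Tnfr1-/- mice (6 libraries) also lack TNF receptor 1, encoded by Tnfrsf1a, while the Il10-/- mice (5 libraries) keep it. Each library came from the whole thickness of a colon, so mucosa, muscle and vessels were read together. The series has no colon with intact Il10, and the sources used here give neither sex nor litter nor housing. Each genotype can therefore be set only against the other.

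Endothelial cells are recognised by junction proteins, growth factor receptors and stored clotting factor that most other cells lack. At sites of inflammation, tumour necrosis factor acting through TNF receptor 1 switches on the transcription factor NF-kB in endothelium, and NF-kB then drives genes of selectins and immunoglobulin-like adhesion proteins. Selectins slow leukocytes along the vessel wall, and Icam1, Vcam1 and Madcam1 bind their integrins and hold them. Madcam1 is the address protein of gut venules, which directs lymphocytes to the intestine. The comparison asks whether these genes differ when TNF receptor 1 is missing, alone and against the amount of endothelial RNA.

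The promoters of 3 adhesion genes are shown because NF-kB sites next to the start are the textbook route by which TNF reaches these genes. RefSeq sequence on GRCm38.p6 was matched for 6 of the 10 members, and the windows below hold the 250 bases before the annotated start of Madcam1 (chr10:79664309-79664558, plus strand), Icam1 (chr9:21015690-21015939, plus strand) and Sele (chr1:164047984-164048233, plus strand). Capitals mark matches to GGGNNNNNCC and GGAANTTCC, searched on both strands, and to TATAAA, searched on the strand of the gene.
Madcam1: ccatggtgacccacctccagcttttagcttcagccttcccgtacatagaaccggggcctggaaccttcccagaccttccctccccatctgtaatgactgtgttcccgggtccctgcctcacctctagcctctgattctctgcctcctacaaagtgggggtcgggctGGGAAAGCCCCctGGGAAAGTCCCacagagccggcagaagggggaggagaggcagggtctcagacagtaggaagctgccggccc
Icam1: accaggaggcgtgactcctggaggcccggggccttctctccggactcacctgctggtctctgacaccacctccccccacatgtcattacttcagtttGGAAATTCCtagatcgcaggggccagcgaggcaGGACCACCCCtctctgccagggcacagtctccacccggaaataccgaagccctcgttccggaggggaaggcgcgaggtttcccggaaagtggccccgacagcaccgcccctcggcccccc
Sele: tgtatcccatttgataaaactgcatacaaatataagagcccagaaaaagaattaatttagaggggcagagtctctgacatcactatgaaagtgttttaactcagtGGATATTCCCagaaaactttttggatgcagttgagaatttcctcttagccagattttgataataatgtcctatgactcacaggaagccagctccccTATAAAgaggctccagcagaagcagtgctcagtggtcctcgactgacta
Madcam1 holds matches to the 10-letter pattern in a pair of runs, at positions -84 to -74 and -71 to -61. Icam1 holds the 9-letter pattern at -153 to -145 and a 10-letter match at -120 to -111. Sele has a 10-letter match at -145 to -136 and a TATA box at -49 to -44. All 6 matched members hold the 10-letter pattern, the identity genes Kdr (-91 to -82 and -74 to -65) and Tek (-139 to -130) and the adhesion gene Selp (-15 to -6) included, so it does not set the adhesion genes apart. It is common, in 45.8% of 32851 promoter windows, against 0.813% for the 9-letter pattern and 7.59% for TATAAA. Such matches describe letters only and show no binding. The RefSeq start of Icam1 lies upstream of the GENCODE start given with its values below.

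The targeted receptor gene followed the labels: Tnfrsf1a was at 14.8 ± 2.34 (SD, n = 6) in Il10-/- Tnfr1-/- colons and 47.9 ± 18.5 (SD, n = 5) in Il10-/- colons, without overlap, and its log2 fold change of -1.60 ± 0.22 (SE) had the smallest adjusted p of all genes, 0.125. Il10 carried some signal in every library, at 5.14 ± 1.56 in Il10-/- Tnfr1-/- and 15.3 ± 6.44 in Il10-/- colons. These values did not overlap either, and the log2 fold change of Il10 was -1.44 ± 0.28 (SE; limma adjusted p = 0.536). The cause of that difference was not tested. Library sums of abundance ran between 804109 and 1378971, and since the values are not counts, the depth is unknown. After Benjamini-Hochberg adjustment of limma p-values, 0 of 13561 genes were called (0%), and 1131 of them (8.34%) had an unadjusted p under 0.05, the higher ones being 4.74% of all genes. Sample titles are numbers whose first digit is not explained in the labels. Titles starting with 1 cover Il10-/- Tnfr1-/- replicates 1 and 2 and Il10-/- replicates 1, 2 and 3. Those starting with 2 (replicates 3 and 4) and 3 (replicates 5 and 6) are all Il10-/- Tnfr1-/-, and those starting with 4 (replicates 5 and 6) are all Il10-/-. Genotype and this digit can therefore be told apart only among titles starting with 1. Replicates 3 and 4 of Il10-/- Tnfr1-/- stood apart in vessel and muscle genes, and values without them are given where they matter. Leaving them out was chosen after seeing the data. Smaller differences without them, in genes that were high in them, follow from that choice and are no independent check.

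All 5 identity genes were detected, so the samples contain endothelial RNA. Averaged over the 11 libraries, the length-scaled abundance was highest for Pecam1 at 15.9 ± 8.12, followed by Vwf at 7.31 ± 5.03 and Cdh5 at 4.60 ± 4.32. Icam1 (4.005 ± 2.48), Kdr (3.29 ± 2.16), Madcam1 (2.91 ± 1.92) and Vcam1 (2.71 ± 2.11) formed a middle band (SD, n = 11), below which lay Tek at 1.26 ± 1.12. Neighbours in that band could not be ordered: Cdh5 exceeded Icam1 in 7 of 11 libraries, Icam1 exceeded Kdr in 4, and Kdr exceeded Madcam1 and Madcam1 exceeded Vcam1 in 7 each. The steps at both ends were clearer, with Pecam1 above Vwf in 10 of 11 libraries and Vcam1 above Tek in 10. Selp (0.225) and Sele (0.0123) were lowest, each below the next gene in all 11 libraries. This order is that of sums over all transcripts. With protein-coding transcripts only, Pecam1 still led at 10.1, but Vwf averaged 0.623, below Tek at 1.26.

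On average 4 of the 5 identity genes were higher in Il10-/- Tnfr1-/- colons, by 0.64 to 0.95 on the log2(abundance + 0.5) scale, and Pecam1 was level at -0.01. None passed the test. Among titles starting with 1 all 5 were lower instead, and with an equal total per library Pecam1 was higher at 0.13. Over the 8 members that passed the filter on low values, 7 were higher, 0 were called (0% of all genes) and 0 separated the genotypes (0.575% of all genes did). Their median was 0.68 against 0.05 for all genes, of which 55.5% were higher. Tek, counted in the 7 and in that median, passed the filter mostly through the Il10-/- Tnfr1-/- colons, where it was higher. In whole tissue, fewer endothelial cells and less RNA in each cannot be told apart.

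Vwf, on chromosome 6 from 125546774 to 125686679 (plus strand, mm10), encodes von Willebrand factor, the clotting protein that endothelium stores together with P-selectin. Its summed abundance ran from 3.61 through a median of 7.66 to 17.6 in Il10-/- Tnfr1-/- colons, against 3.16, 3.80, 9.16, 3.28 and 4.29 in Il10-/- replicates 1, 2, 3, 5 and 6. The highest values were those of Il10-/- Tnfr1-/- replicates 4 and 6, and the lower part of that group lay within the Il10-/- range. The log2 fold change was 0.82 ± 0.40 (SE; limma adjusted p = 0.536), and -0.22 among titles starting with 1. Cdh5, on chromosome 8 from 104101625 to 104144511 (plus strand), encodes VE-cadherin, which seals the junctions between endothelial cells. It ran from 2.06 through 3.32 to 13.2 in Il10-/- Tnfr1-/- colons and was 2.41, 4.27, 3.93, 1.77 and 0.611 in the Il10-/- colons. Replicates 3 and 4 of Il10-/- Tnfr1-/-, at 12.9 and 13.2, stood apart from all other libraries, of which the highest was 4.27, while the remaining 4 of their genotype lay inside the Il10-/- range. Its log2 fold change of 0.95 ± 0.53 (SE; adjusted p = 0.536) became 0.27 without those 2 libraries and -0.24 among titles starting with 1.

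Kdr, on chromosome 5 from 75932827 to 75978458 (minus strand), encodes the main signalling receptor for VEGF. It ran from 1.04 through 3.65 to 7.53 in Il10-/- Tnfr1-/- colons, against 1.97, 3.26, 2.56, 1.77 and 1.34 in Il10-/- colons. Replicates 3, 4 and 6 exceeded every Il10-/- library and the other 3 did not, and the log2 fold change was 0.64 ± 0.40 (SE; adjusted p = 0.539). It was 0.18 without replicates 3 and 4 and -0.50 among titles starting with 1. Tek, on chromosome 4 from 94739289 to 94874976 (plus strand), encodes the receptor for angiopoietins, which steady mature vessels. It ran from 0.427 through 1.10 to 3.71 in Il10-/- Tnfr1-/- colons and was 0.546, 0.833, 1.00, 0.709 and 0.351 in Il10-/- colons. Tek exceeded 1 in exactly 5 libraries, the least that the filter allows, and 4 of these were Il10-/- Tnfr1-/-. Its log2 fold change was 0.73 ± 0.39 (SE; adjusted p = 0.536), with 0.21 left without replicates 3 and 4 and -0.11 among titles starting with 1.

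Pecam1, on chromosome 11 from 106654217 to 106750628 (minus strand), encodes the junction protein CD31 through which leukocytes cross the vessel wall. Its sum ran from 8.85 through 12.0 to 25.9 in Il10-/- Tnfr1-/- colons and was 7.52, 14.6, 31.4, 10.8 and 16.3 in Il10-/- colons, a log2 fold change of -0.01 ± 0.38 (SE; adjusted p = 0.989). The highest of all was Il10-/- replicate 3.

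**Figure D1:**
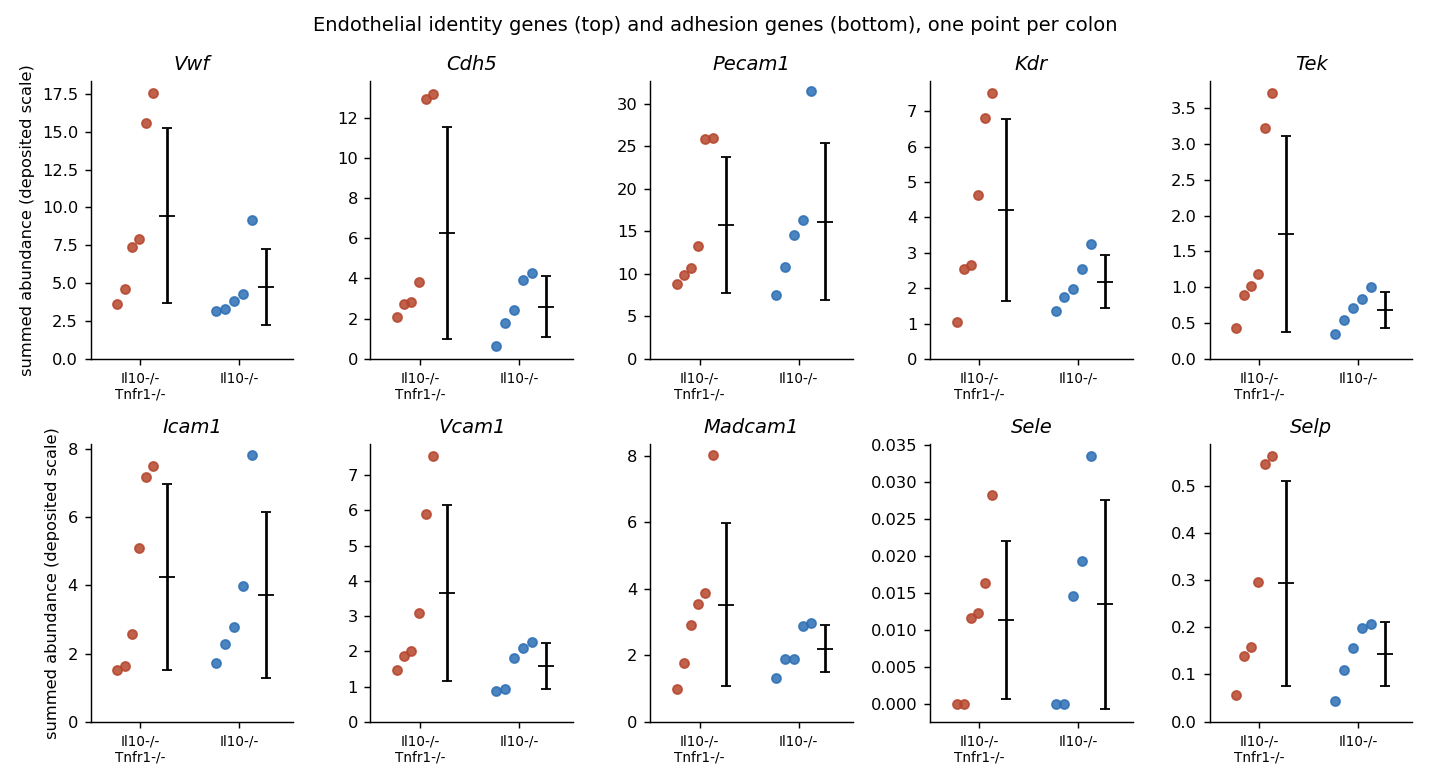
Summed abundance (deposited scale, y axis) of each member in 6 Il10-/- Tnfr1-/- colons (left, red) and 5 Il10-/- colons (right, blue). Points are colons sorted by value, and bars are the mean ± SD. The genotypes overlap for all 10 genes, and a pair of Il10-/- Tnfr1-/- colons is high for Cdh5, Kdr and Tek.

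The Pecam1 sum is made of transcripts whose group means lay in opposite directions, although none of them passed the test. ENSMUST00000184424, annotated in GENCODE M21 as a retained-intron RNA, is a single stretch of 2142 bases on chr11:106661185-106663326 (minus strand), and 89.4% of it lies outside exons of the coding transcripts. It ran from 1.21 through 2.65 to 4.40 in Il10-/- Tnfr1-/- colons, against 1.96, 6.29, 21.4, 5.46 and 13.4 in Il10-/- colons. Of the Il10-/- libraries, 4 exceeded every Il10-/- Tnfr1-/- library and replicate 1 did not. The log2 fold change was -1.45 ± 0.51 (SE; limma adjusted p = 0.646 over 27895 transcripts). This RNA made up a median 27.5% of the Pecam1 sum in Il10-/- Tnfr1-/- colons (4.67% to 33.0%) and 50.4% in Il10-/- colons (26.0% to 82.0%).

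The protein-coding transcripts of Pecam1 alone ran from 6.46 through 8.30 to 24.7 in Il10-/- Tnfr1-/- colons and were 5.56, 8.32, 10.01, 5.38 and 2.95 in Il10-/- colons. Replicates 3 and 4 of Il10-/- Tnfr1-/-, at 24.7 and 24.4, again stood far above the rest, as in Cdh5, Kdr and Tek. With coding transcripts only, a choice made after seeing the data, the log2 fold change of Pecam1 was 0.85 ± 0.42 (SE; adjusted p = 0.545). The main coding transcript, ENSMUST00000103069, had 1.15 ± 0.45 (limma adjusted p = 0.646), being 5.78 ± 4.26 in Il10-/- Tnfr1-/- and 2.06 ± 1.09 in Il10-/- colons.

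Vwf also rested on transcripts that are not annotated as coding, but unlike the Pecam1 RNA these lie mostly within exons of its coding transcripts. ENSMUST00000146264, a processed transcript of 456 bases over the last 2 exons (chr6:125685737-125686635), made up 53.8% of the Vwf sum over all libraries. Of its bases, 16.0% lie outside exons of the coding transcripts. ENSMUST00000147101, a transcript of 19 exons annotated for nonsense-mediated decay, made up 31.4% of the sum and has 0% of its bases outside those exons. The decay-annotated transcript ran from 1.49 through 3.04 to 5.62 in Il10-/- Tnfr1-/- colons and was 0.894, 1.16, 1.96, 0.975 and 0.879 in Il10-/- colons. Only Il10-/- replicate 3 reached into the Il10-/- Tnfr1-/- range, and the log2 fold change was 1.07 ± 0.33 (SE; limma adjusted p = 0.646). The transcripts annotated as coding stayed low, at 0.180 through 0.533 to 2.09 in Il10-/- Tnfr1-/- colons and a median of 0.271 in Il10-/- colons, and failed the filter. Which part of the gene the reads covered cannot be seen in values per transcript. Of the 42 transcripts of the 10 members, 11 passed the filter, 10 of them higher and 1 lower. Of these, 3 had an unadjusted p under 0.05 (6.27% of all transcripts did) and 0 were called (0% of all transcripts). With coding transcripts only, Il10-/- Tnfr1-/- replicates 3 and 4 were the highest 2 libraries for all 5 identity genes.

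**Figure D2:**
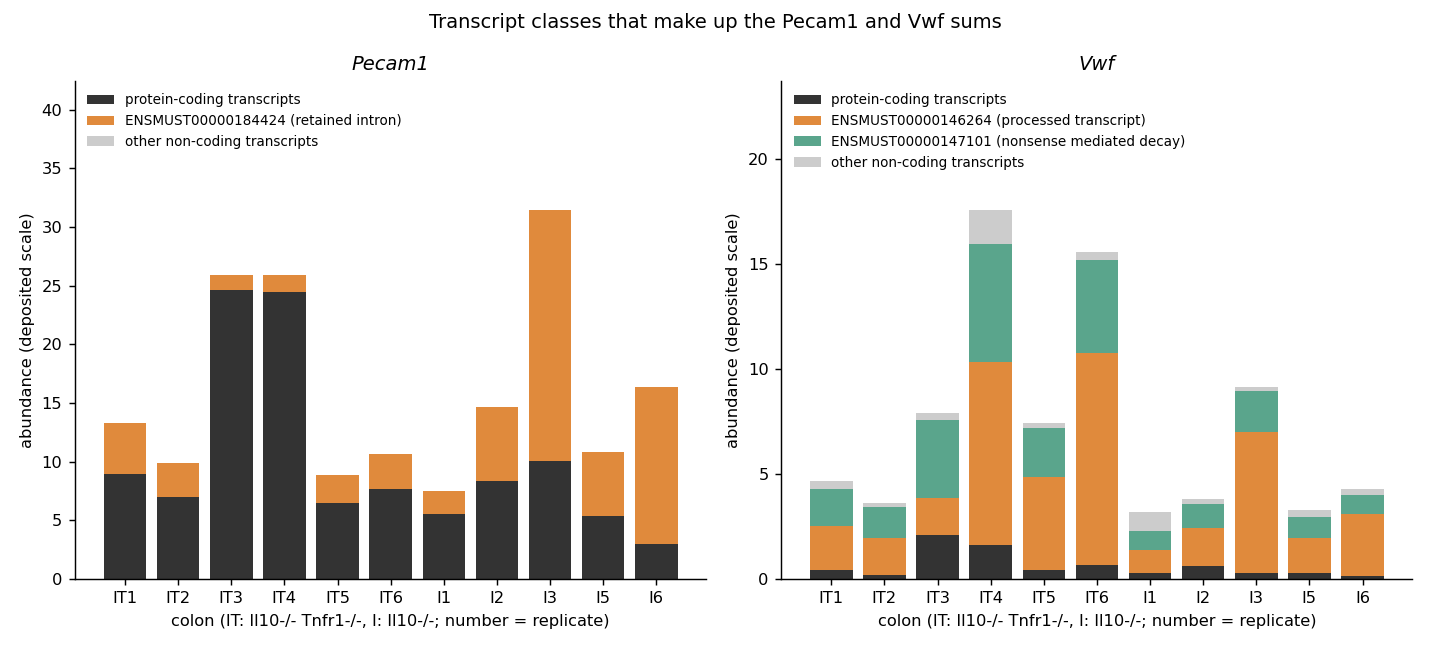
Abundance (deposited scale, y axis) of Pecam1 and Vwf per colon, stacked by transcript class (IT, Il10-/- Tnfr1-/-; I, Il10-/-; the number is the replicate). The retained-intron RNA of Pecam1 reaches 21.4 in Il10-/- replicate 3 and stays at 4.40 or less in Il10-/- Tnfr1-/- colons, while coding Pecam1 peaks in Il10-/- Tnfr1-/- replicates 3 and 4.

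None of the 3 adhesion genes that passed the filter was called. Vcam1 had the largest difference, 0.84 on the log2 scale, then Madcam1 at 0.41 and Icam1 at 0.11, and the direction of Icam1 turned to -0.02 with quantile normalization. The selectin genes were almost silent in both genotypes.

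Icam1, on chromosome 9 from 21015985 to 21028817 (plus strand), encodes the ligand of the beta-2 integrins of neutrophils and other leukocytes, and is also made by epithelium and immune cells. It ran from 1.53 through 3.82 to 7.49 in Il10-/- Tnfr1-/- colons, against 7.82, 1.72, 2.29, 2.77 and 3.99 in Il10-/- colons. The highest library was Il10-/- replicate 1, followed by Il10-/- Tnfr1-/- replicates 3 and 2, so both genotypes spanned the whole range. The log2 fold change was 0.11 ± 0.45 (SE; adjusted p = 0.917), with a 95% interval of -0.88 to 1.10, and -0.25 without Il10-/- Tnfr1-/- replicates 3 and 4.

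Vcam1, on chromosome 3 from 116109949 to 116129688 (minus strand), encodes the ligand of the integrin made from Itga4 and Itgb1, and is also made by stromal cells of lymphoid tissue. It ran from 1.47 through 2.55 to 7.56 in Il10-/- Tnfr1-/- colons, against 2.25, 1.81, 2.10, 0.919 and 0.875 in Il10-/- colons. Replicates 3, 2 and 4 of Il10-/- Tnfr1-/- exceeded every Il10-/- library, and the other 3 did not. The log2 fold change was 0.84 ± 0.39 (SE; limma adjusted p = 0.536), with a 95% interval of -0.01 to 1.70. It was 0.55 without replicates 3 and 4 and 0.65 among titles starting with 1. The 0.65 rests on Il10-/- Tnfr1-/- replicate 2 (5.91), since replicate 1 (2.01) lay within the Il10-/- values. The log2 fold change stayed above 0 in all 25 alternative settings, with limma adjusted p between 0.265 and 0.9998. Those settings refit the same 11 libraries or parts of them, so their shared sign is no independent check. With coding transcripts only all 7 members tested were higher (63.5% of all such sums were), and Vcam1 alone had an unadjusted limma p under 0.05 (8% of all such sums had). Those 7 again include Tek, which passed the filter mostly through Il10-/- Tnfr1-/- colons.

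Madcam1, on chromosome 10 from 79664559 to 79668537 (plus strand), encodes the gut venule ligand of the integrin made from Itga4 and Itgb7. It ran from 0.990 through 3.22 to 8.01 in Il10-/- Tnfr1-/- colons and was 1.89, 2.86, 2.98, 1.90 and 1.32 in Il10-/- colons. Replicate 3 of Il10-/- Tnfr1-/-, at 8.01, stood apart from the next library, replicate 4 at 3.87. The log2 fold change was 0.41 ± 0.39 (SE; adjusted p = 0.637; 95% interval -0.44 to 1.25), and 0.00 both among titles starting with 1 and without replicates 3 and 4. Sele, on chromosome 1 from 164048234 to 164057677, encodes E-selectin, which is made by cytokine-activated endothelium. It reached at most 0.0282 in Il10-/- Tnfr1-/- colons and 0.0334 in Il10-/- colons, and was listed at 0 in 2 libraries of each genotype. Selp, on chromosome 1 from 164115264 to 164150026, encodes P-selectin. It ran from 0.0561 through 0.227 to 0.563 in Il10-/- Tnfr1-/- colons and was 0.110, 0.199, 0.207, 0.157 and 0.0442 in Il10-/- colons. Its highest values were again those of replicates 4 and 3, and neither selectin gene reached 1 in any library or was tested. Annotated antisense genes overlap Cdh5, Icam1, Vcam1 and Selp, and the sources used here do not state the strand setting of the authors' quantification.

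Set against the identity genes, no adhesion gene differed between the genotypes by more than its SD among Il10-/- Tnfr1-/- colons. Madcam1 (-0.22), Sele (-0.63) and Selp (-0.36) differed by more than their SD among Il10-/- colons (0.18, 0.48 and 0.34). The directions were mixed: Icam1, Madcam1, Sele and Selp lay lower in Il10-/- Tnfr1-/- colons and Vcam1 higher. The mean log2(abundance + 0.5) of the 5 identity genes was 2.47 ± 0.79 (SD, n = 6) in Il10-/- Tnfr1-/- and 1.85 ± 0.46 (SD, n = 5) in Il10-/- colons. The mean of the 5 adhesion genes was 0.86 ± 0.56 in Il10-/- Tnfr1-/- and 0.54 ± 0.20 in Il10-/- colons. Subtracted within each library, adhesion minus identity was -1.61 ± 0.75 in Il10-/- Tnfr1-/- and -1.31 ± 0.45 in Il10-/- colons, a difference of -0.30. The near-silent Sele (-0.63) and Selp (-0.36) weigh on that value, since their log2(abundance + 0.5) is close to that of 0 and the subtraction then mostly returns the identity mean with its sign turned. With only the 3 adhesion genes that passed the filter the difference was -0.17, and with an equal total per library it was -0.33. It was -0.10 with the other endothelial genes as the base, -0.09 without Il10-/- Tnfr1-/- replicates 3 and 4, and 0.43, of the opposite sign, among titles starting with 1. Replicate 2 of Il10-/- Tnfr1-/- stood at -0.19 and the other 5 between -2.38 and -1.68. The 0.43 rests on that colon. Replicate 1 of Il10-/- Tnfr1-/- was at -1.76, and Il10-/- replicates 1, 2 and 3 were at -0.73, -1.59 and -1.89. Without replicate 2 the difference was -0.58, without Il10-/- Tnfr1-/- replicate 4 it was -0.15, and without Il10-/- replicate 1 it was -0.16.

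Per gene and relative to the identity mean, Icam1 differed by -0.51 ± 0.45 (SE; limma adjusted p = 0.469), Vcam1 by 0.22 ± 0.46 (adjusted p = 0.743) and Madcam1 by -0.22 ± 0.45 (adjusted p = 0.744). None of the 3 was called, against 65 of all genes (0.479%). In that fit every gene shares the subtracted column, so its p-values are too small, and the 65 genes are not read as a result. Leaving out 1 library, relative Icam1 ran between -0.90 (without Il10-/- Tnfr1-/- replicate 2) and -0.15 (without Il10-/- replicate 1), and relative Madcam1 between -0.47 (without Il10-/- Tnfr1-/- replicate 2) and -0.07 (without Il10-/- Tnfr1-/- replicate 5). Relative Vcam1 ran between -0.15 (without Il10-/- Tnfr1-/- replicate 2) and 0.42 (without Il10-/- Tnfr1-/- replicate 4). Among titles starting with 1 all 3 were higher, Vcam1 at 0.95, Icam1 at 0.37 and Madcam1 at 0.29. These differences rest on Il10-/- Tnfr1-/- replicate 2. Replicate 1, the only other colon of that genotype there, stood at -0.77 for Vcam1, -1.08 for Icam1 and -0.91 for Madcam1. With coding transcripts only, a choice made after seeing the data, Icam1 was at -0.61, Madcam1 at -0.36 and Vcam1 at 0.11. In Il10-/- Tnfr1-/- replicate 2, Icam1 stood 1.48, Vcam1 1.22 and Madcam1 0.56 above the identity mean, and in Il10-/- replicate 1 Icam1 stood 1.5 above it. The other libraries held Vcam1 and Madcam1 below their identity mean.

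**Figure D3:**
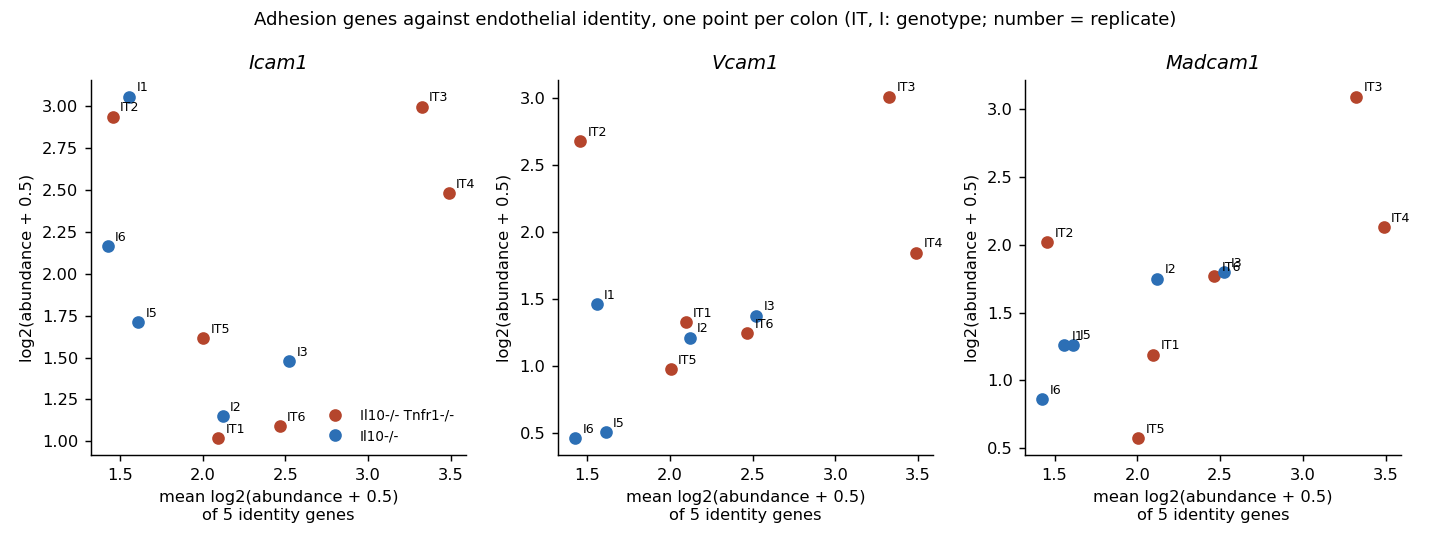
Log2(abundance + 0.5) of Icam1, Vcam1 and Madcam1 (y axes) against the mean of the 5 identity genes on the same scale (x axis), one point per colon (IT and red, Il10-/- Tnfr1-/-; I and blue, Il10-/-). IT2 and I1 lie high for their identity level in Icam1, IT2 also in Vcam1, and IT3 and IT4 lie at the right end.

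Across the 11 colons, the identity mean followed Madcam1 with Pearson's r = 0.69 (permutation p = 0.0182, adjusted 0.0410 over 9 relations) and Spearman's rho = 0.63 (adjusted p = 0.104). It followed Selp with r = 0.77 (permutation p = 0.00765, adjusted 0.0229) and rho = 0.62 (adjusted p = 0.104). Without the 2 colons farthest from the median identity mean, replicates 3 and 4 of Il10-/- Tnfr1-/-, r was 0.29 for Madcam1 and 0.11 for Selp, so both relations rest on those colons. Within the 6 Il10-/- Tnfr1-/- colons r was 0.59 for Madcam1 and 0.70 for Selp, and the 5 Il10-/- colons are too few. Vcam1 gave r = 0.48 (rho = 0.44, permutation adjusted p = 0.196 and 0.233), and -0.03 without those colons. Icam1 gave r = 0.04 (rho = -0.20, permutation adjusted p = 0.899 and 0.591), and -0.77 without them. Sele, at its trace level, gave r = -0.13 (rho = -0.18, permutation adjusted p = 0.781 and 0.591).

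The genes most like the identity mean over the 11 libraries, among 13483 ranked genes, were Tm4sf1, Myct1, Eng and Tie1 (each r = 0.98) and Ptprb (r = 0.97). Of these, Eng, Tie1, Ptprb and Myct1 stood on the list of other endothelial genes. Icam1 was most like Nod1 (0.93), a sensor of bacterial wall fragments, then C3 (0.89), the central complement component, and Prkch (0.89). Vcam1 was most like Tcf7 (0.97), a T cell transcription factor, Ccl21a (0.97), the chemokine of lymphatic vessels and lymphoid stroma, and Limd2 (0.96). Madcam1 was most like Fam105a (0.92), the macrophage growth factor receptor gene Csf1r (0.91) and Vsir (0.90). The identity genes and the 3 adhesion genes thus had no named neighbour in common.

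Further endothelial genes leaned the same way as the identity genes. Of 31 other endothelial genes in the table, 27 passed the filter, 24 of them higher and 3 lower in Il10-/- Tnfr1-/- colons, with a median log2 fold change of 0.49 against 0.05 for all genes. Under the 3 other scalings 20 to 25 were higher, without replicates 3 and 4 of Il10-/- Tnfr1-/- 15 were higher and 12 lower, and among titles starting with 1 only 2 were higher. None was called (0% of all genes). S1pr1, a sphingolipid receptor that stabilises vessels, was 3.95 ± 2.44 in Il10-/- Tnfr1-/- and 1.41 ± 0.70 in Il10-/- colons, a log2 fold change of 1.15 ± 0.41 (SE; limma adjusted p = 0.536). Icam2, a constitutive endothelial adhesion protein, was next by p at 0.76 ± 0.36 (adjusted p = 0.536). Aplnr, Ecscr and Egfl7 were the 3 lower genes, at -0.52, -0.26 and -0.12, and are named after their values were seen.

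**Figure D4:**
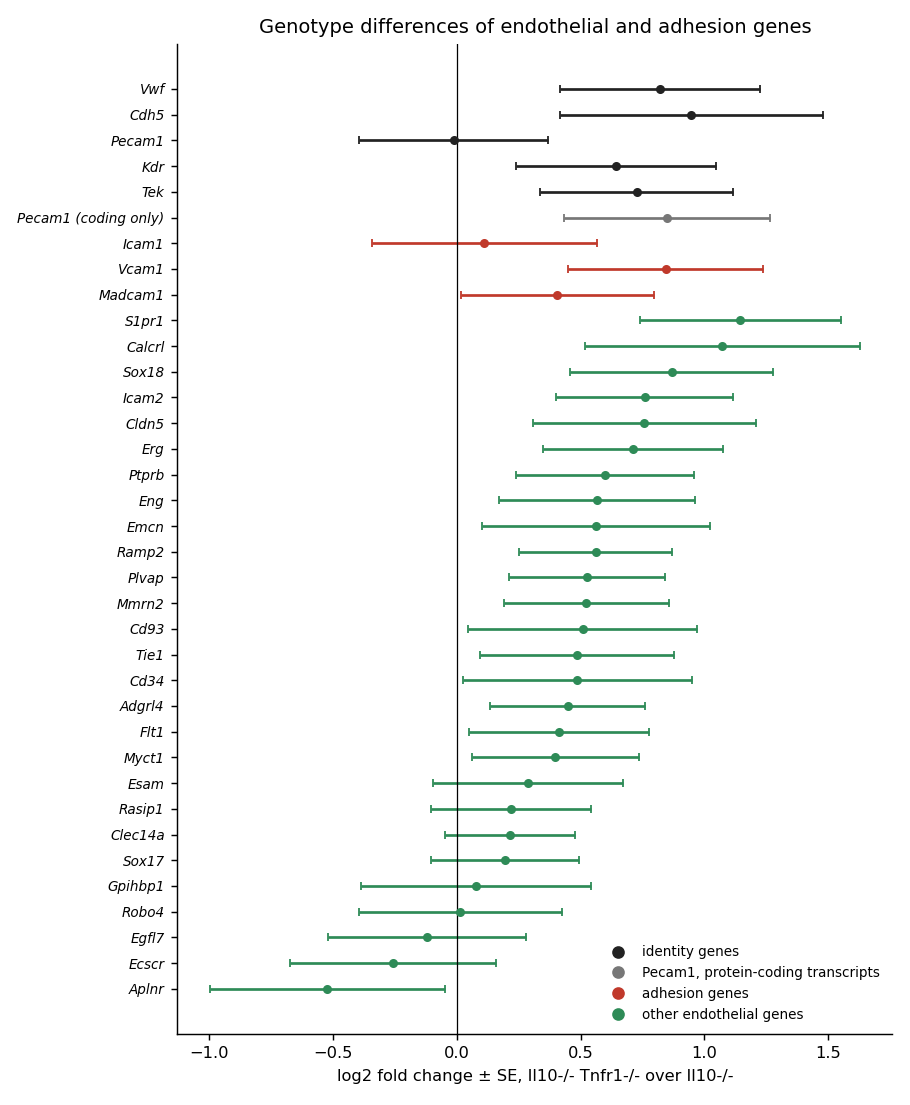
Log2 fold change ± SE (x axis), Il10-/- Tnfr1-/- over Il10-/-, of the members and of the 27 other endothelial genes that passed the filter, as deposited. Most points lie right of 0, Pecam1 moves from -0.01 to 0.85 when only its coding transcripts are summed, and no gene passed the test. Among titles starting with 1, 25 of the 27 other endothelial genes are lower.

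Vessel subtypes gave short lists. All 4 tested arterial genes were higher, with a median of 0.26, led by Hey1, a Notch target (0.47 ± 0.32), and Dll4, a Notch ligand (0.21 ± 0.21), and all 4 were lower among titles starting with 1. Of 4 venous genes 3 were higher, Nr2f2, the venous fate factor, at 0.34 ± 0.32. The exception was Lrg1, a secreted glycoprotein of venules that inflamed epithelium and liver also make. Lrg1 ran from 0.198 through 1.72 to 27.0 in Il10-/- Tnfr1-/- colons and was 272.1, 5.11, 6.01, 33.6 and 341.2 in Il10-/- colons, a log2 fold change of -3.71 ± 1.22 (SE; limma adjusted p = 0.536). Its high values were in Il10-/- replicates 1 and 6, which were not high in the identity genes. All 3 tested lymphatic genes were higher as deposited (median 0.93), and 2 of 3 with quantile normalization. Ccl21a was 37.9 ± 33.4 in Il10-/- Tnfr1-/- and 11.002 ± 8.27 in Il10-/- colons (1.66 ± 0.67, adjusted p = 0.536), highest at 86.1 and 73.7 in Il10-/- Tnfr1-/- replicates 2 and 3, the libraries with most Vcam1. Lyve1, a hyaluronan receptor of lymphatic vessels, differed by 0.93 ± 0.58. Of the 3 tested VEGF genes, Vegfa differed by -0.09 ± 0.23 and Vegfc by 0.05 ± 0.35, and their signs turned with the scaling.

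On the leukocyte side, in Il10-/- Tnfr1-/- colons all 9 tested ligands of the adhesion proteins had the higher mean (median 0.57), and 8 of 9 were with quantile normalization and among titles starting with 1. Itgb1, the integrin chain that pairs with Itga4 to bind Vcam1 and is also abundant in muscle and stroma, was at 0.57 ± 0.21 (SE; limma adjusted p = 0.536). Cd44, a hyaluronan receptor that also binds E-selectin, was at 0.77 ± 0.29 (limma adjusted p = 0.536). Of 6 tested genes that build selectin ligands, 5 were lower, as they were under each other scaling, with a median of -0.55. Chst4, a sulfotransferase of lymph node venules that colon epithelium also makes, was 19.3 in Il10-/- Tnfr1-/- and 42.1 in Il10-/- colons on average (-0.99 ± 0.43, adjusted p = 0.536), and the sialyltransferase gene St3gal4 was at -0.90 ± 0.52. Of 7 junction and transmigration genes 5 were higher as deposited and 7 with an equal total per library, Pvr at 0.24 ± 0.13 and Jam2 at 0.78 ± 0.45. No gene of these 3 lists was called.

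Among the cytokine inputs to adhesion genes, 5 of 7 tested genes were lower in Il10-/- Tnfr1-/- colons under every scaling, Tnfrsf1a itself among them. Il1r1, the interleukin 1 receptor, was higher at 0.71 ± 0.25 (SE; limma adjusted p = 0.536). Tnf, named after its values were seen because it is the ligand of the missing receptor, averaged 1.98 in Il10-/- Tnfr1-/- and 5.37 in Il10-/- colons (-0.96 ± 0.45, limma adjusted p = 0.536). It ran from 1.03 to 2.66 in Il10-/- Tnfr1-/- colons and was 3.14, 1.07, 3.33, 8.06 and 11.2 in Il10-/- colons, so the genotypes overlapped. The highest values were those of Il10-/- replicates 5 and 6, whose titles start with 4, a digit found in that genotype alone. Of 8 tested NF-kB feedback and activation genes 6 were lower as deposited, with a median of -0.09, and between 4 and 8 were lower under the other scalings. Cxcl1, a neutrophil chemokine, averaged 0.672 in Il10-/- Tnfr1-/- and 7.16 in Il10-/- colons (-2.26 ± 0.65, limma adjusted p = 0.536). Its Il10-/- values were 15.2, 0.895, 1.34, 4.84 and 13.5, and Il10-/- Tnfr1-/- colons reached 1.99, so the genotypes overlapped. Cxcl1 exceeded 1 in just the 5 libraries that the filter requires, and only 1 of these was Il10-/- Tnfr1-/-. It was thus tested because of the genotype where it was high. The interferon regulator gene Irf1 was at -0.48 ± 0.31. None of these genes was called.

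Smooth muscle and fibroblast markers tracked the vessel genes. The 10 smooth muscle markers, none of which was at 0 throughout, summed to 829.01 to 8021 in Il10-/- Tnfr1-/- and 185 to 3506 in Il10-/- colons. All 10 were higher under every scaling, with a median log2 fold change of 1.79, and Actg2, a smooth muscle actin, was at 2.57 ± 0.92 (adjusted p = 0.536). The 8 fibroblast markers summed to 218 to 1743 in Il10-/- Tnfr1-/- and 78.0 to 434 in Il10-/- colons, and all 8 were higher under every scaling. All 5 tested pericyte markers were higher, with sums of 30.2 to 216 in Il10-/- Tnfr1-/- and 13.6 to 58.6 in Il10-/- colons. Replicates 3 and 4 of Il10-/- Tnfr1-/- were the top 2 libraries in the muscle, fibroblast and pericyte sums as in Cdh5, Kdr and Tek. Among titles starting with 1 the genotypes overlapped in these sums. Muscle sums were 2856 and 858 in Il10-/- Tnfr1-/- replicates 1 and 2, against 893, 836 and 3506 in Il10-/- replicates 1 to 3. Fibroblast sums in the same order were 441 and 248 against 261, 413 and 434. Pericyte sums were 73.7 and 30.2 against 18.8, 35.3 and 58.6. The identity mean followed the smooth muscle mean with r = 0.83 (permutation adjusted p = 0.00733; rho = 0.76, adjusted p = 0.0702) and the fibroblast mean with r = 0.86 (permutation adjusted p = 0.00531; rho = 0.72, adjusted p = 0.0702). Without the 2 colons farthest from the median these were 0.65 and 0.58. With the smooth muscle mean as a covariate, the genotype difference was 0.42 for Vwf, -0.08 for Cdh5, -0.62 for Pecam1, 0.08 for Kdr and 0.13 for Tek. Among the adhesion genes it was 0.45 for Vcam1, 0.01 for Madcam1 and 0.00 for Icam1, and none of the 8 was called. The share of muscle wall in each sample is not given.

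Macrophage markers were higher in 8 of 8 tested genes and in 7 of 8 with quantile normalization, and summed to 67.6 to 231 in Il10-/- Tnfr1-/- and 48.6 to 100.5 in Il10-/- colons. Their mean followed the identity mean with r = 0.61 (permutation adjusted p = 0.0810). Epithelial markers were lower in 7 of 9 as deposited and in 4 of 9 with quantile normalization, with r = -0.45 (permutation adjusted p = 0.203). Vwf is also made by megakaryocytes. Of the 9 platelet and megakaryocyte markers, Ppbp, Gp5, Gp1ba and Gp6 stayed under 1 in every library and the other 5 passed the filter, 2 higher and 3 lower as deposited. Itgb3, of smallest p among the 5, averaged 3.53 in Il10-/- Tnfr1-/- and 1.96 in Il10-/- colons (0.70 ± 0.41, limma adjusted p = 0.537). Pf4 averaged 12.0 in Il10-/- Tnfr1-/- and 10.7 in Il10-/- colons. Gp1bb averaged 3.67 in Il10-/- Tnfr1-/- and 6.69 in Il10-/- colons, and Itga2b 2.94 in Il10-/- Tnfr1-/- and 3.49 in Il10-/- colons. Neither Pf4 nor Itga2b was among the 2 of smallest p. The 9 together summed to 18.7 to 31.4 in Il10-/- Tnfr1-/- and 20.8 to 35.0 in Il10-/- colons. The highest sum, with Gp1bb at 12.47 and Itga2b at 6.04, was in Il10-/- replicate 3, which also had the most Vwf of its genotype, and the part of platelet RNA in that value was not tested. All 5 erythroid genes were higher under every scaling, with sums of 96.5 to 658 in Il10-/- Tnfr1-/- and 72.6 to 240 in Il10-/- colons, and all 5 were lower among titles starting with 1.

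The 7 B cell and follicular dendritic cell markers summed to 86.9 in Il10-/- Tnfr1-/- replicate 2, 56.1 in Il10-/- Tnfr1-/- replicate 3 and 24.8 in Il10-/- replicate 1. All other libraries lay between 1.20 and 4.51. The top 3 libraries for Icam1 were the same 3, and the top 2 for Vcam1 were the first 2 of them. Lymphoid tissue was not named in the labels of any colon, and its part in the Icam1 and Vcam1 values was not tested.

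**Figure D5:**
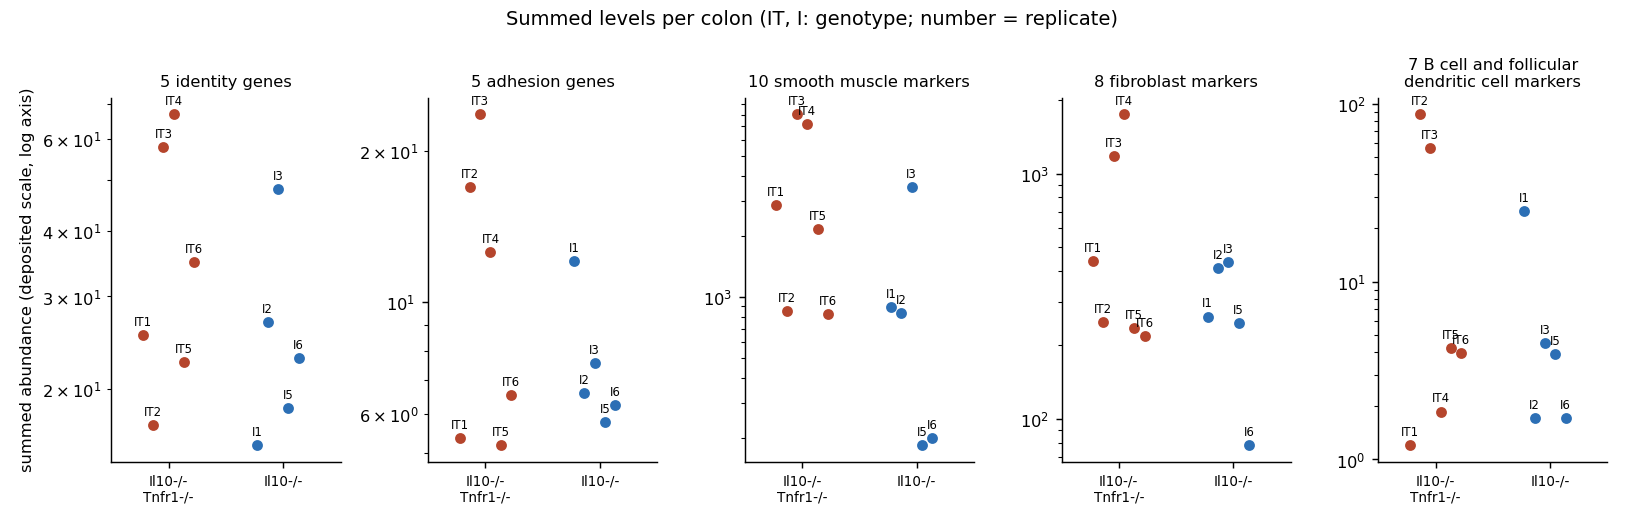
Summed abundance (deposited scale, log y axes) of 5 gene groups per colon, Il10-/- Tnfr1-/- (IT, red) left of Il10-/- (I, blue). IT3 and IT4 lead in identity, smooth muscle and fibroblast sums, whereas IT2, IT3 and I1 lead in B cell and follicular dendritic cell markers, where the other colons lie between 1.20 and 4.51.

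The authors' deposited table of their own comparison lists a p for 19 transcripts of the members, of which 5 were under 0.05 (6.83% of its 43192 transcripts were), and the smallest q was 0.684. Per the authors' deposited table, the retained-intron RNA of Pecam1 had a log2 fold of -1.85 (p = 0.00831) and coding transcript ENSMUST00000103069 one of 1.61 (p = 0.0364). The main Vcam1 transcript had a log2 fold of 1.16 (p = 0.0403) in the authors' deposited table, and the decay-annotated Vwf transcript 1.46 (p = 0.00217). The remaining transcript under 0.05 in the authors' deposited table was coding Vwf transcript ENSMUST00000112254, with 2.00 (p = 0.0258). Its mean abundance over all libraries was only 0.490. The header of the authors' deposited table does not state the direction, and Tnfrsf1a carries -1.79 there.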

How the data were processed

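Colon RNA of 12 mice is described in the labels, and 11 of them matched a column of the deposited table by title. One Il10-/- sample (replicate 4) matched no column, and 1 per-sample column matched no title, and neither was used. Per the labels' protocols, Trizol-homogenised colons gave stranded mRNA libraries read as single ends. The submitters' processing notes name CASAVA, kallisto, sleuth and the build mm10, without versions. The deposited abundances are scaled by the authors and are signal values of at least 0, not counts. Over 10759 transcripts above 1000 bases, the authors' mean natural log minus log abundance had a slope of 1.08 on log length, so values are per length. The deposited p-values, q-values and log2 folds are the authors' own and are quoted only as such.

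After dropping 866 repeated rows, 113193 transcripts were summed to 35688 genes, and GENCODE M21 supplied coordinates and classes for 96.6% of them. Limma 3.58.1 (R 4.3.3, data.table version 1.17.8) with trend and robust moderation was fitted to log2(value + 0.5) of the 13561 genes over 1 in at least 5 libraries, and to transcripts by the same filter. P-values are two-sided, adjusted by Benjamini-Hochberg over all genes, with a threshold of 0.05, and fold changes are Il10-/- Tnfr1-/- minus Il10-/-. The fit was tested on simulated data. Correlations used 100000 permutations. Tables and figures were made with Python 3.11.15, pandas 2.3.3, scipy 1.17.1 and matplotlib 3.10.9. The labels do not say that mice came from separate litters, so p-values measure only the spread between these samples.

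The members and lists were chosen with earlier results of these data known. Named genes were all members, both targeted genes, the 2 genes of smallest p of each list, and the 5 and 3 genes most like the identity mean and each tested adhesion gene. Alternatives covered pseudocount, scaling, filter, moderation, covariates, coding transcripts only and leaving out libraries. Coding transcripts only and leaving out titles starting with 2 were chosen after seeing the data.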

Additional observations from a re-analysis of the deposited data

Results flagged for a closer look

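Of 28 group values examined, 2 held a colon far from the rest of its genotype, and chance alone flags about 1 group in 20. In the Il10-/- colons, Vwf was 9.16 (9.155 before rounding) in replicate 3, against 3.16 to 4.29 in the other 4. That library also had the highest sum of platelet markers, 35.0, and the highest Pecam1 sum, 31.4, with 68.2% of it on the retained-intron RNA. In the Il10-/- Tnfr1-/- colons, adhesion minus identity was -0.1866 in replicate 2, against -2.38 to -1.68 in the other 5. That library had the lowest identity mean of its genotype, 1.46, and the highest sum of B cell and follicular dendritic cell markers, 86.9.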

How the results depend on the processing

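No paired analysis was possible because replicate numbers follow the order of the samples and link no mice. No alternative value of a member was called (0 of 271, with adjusted p from 0.132 upward), and 240 of 271 kept their direction. Genes called numbered 0 as reported, 1 with quantile normalization and 0 to 2 when 1 library was left out, and transcripts 0 to 1. Genes with an unadjusted p under 0.05 numbered 482 without Il10-/- replicate 6 and 2458 without Il10-/- replicate 1. The share of higher genes among them was 56.9% as deposited, 75.1% with an equal total per library (median of all genes 0.19), 40.3% with median-ratio size factors (-0.01) and 41.3% with quantile normalization.

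Genes called relative to identity numbered 65 as reported, 0 with plain moderation, with the title digit as a covariate or with other endothelial genes as the base, 14 with the smooth muscle covariate, 9 among titles starting with 1, 32 without titles starting with 2, and 22 to 239 leaving out 1 library. Adhesion minus identity (-0.30) was 0.43 among titles starting with 1, resting on Il10-/- Tnfr1-/- replicate 2, and -0.33 with an equal total per library. It was -0.17 with the 3 tested adhesion genes and -0.10 with other endothelial genes as the base. Without titles starting with 2 it was -0.09, and leaving out 1 library it was -0.58 to -0.15.

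Both with the title digit as a covariate and among titles starting with 1, values of opposite sign were -0.22 for Vwf, -0.24 for Cdh5, -0.50 for Kdr and -0.11 for Tek, and relative to identity 0.37 for Icam1 and 0.29 for Madcam1. Those relative values rest on Il10-/- Tnfr1-/- replicate 2. With the smooth muscle covariate, values of opposite sign were -0.084 for Cdh5 and, relative to identity, 0.020 for Icam1 and 0.028 for Madcam1. Pecam1 was 0.13 with equal totals and 0.85 with coding transcripts. Icam1 was -0.017 with quantile normalization and -0.25 without titles starting with 2, where Madcam1 was -0.00026, and Madcam1 was -0.012 with the identity mean as a covariate. Leaving out 1 library, Pecam1 ran from -0.24 to 0.26, Icam1 from -0.084 to 0.40, relative Icam1 from -0.90 to -0.15, relative Madcam1 from -0.47 to -0.07 and relative Vcam1 from -0.15 to 0.42. The cause was not tested. Tek fails a filter of 6 libraries and Vwf fails with coding transcripts, so neither has a value there. Depth is unknown, which leaves the precision of Sele and Selp unknown.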
